A study of Homo sapiens with 12 samples.

Results

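The phospholipase C family was described in 2 prostate cancer (PCa) cell lines through 10 genes chosen by symbol, of 60660 genes in the tables: PLCB1, PLCB2, PLCB3 and PLCB4 of the beta class, PLCG1 and PLCG2 of the gamma class, PLCD1, PLCD3 and PLCD4 of the delta class, and PLCE1 of the epsilon class. The study sequenced RNA from LNCaP, an androgen-sensitive line that came from a lymph node metastasis, and from 22Rv1, a line that came from a xenograft which relapsed after castration. Cells of each line were transfected with a negative control oligo (NC-mimic) or with a synthetic, 2′-O-methylated copy of the PIWI-interacting RNA piR-4447944 (piR-4447944 mimic), and all 4 groups were kept without androgen in medium with 10% CS-FBS, a serum stripped with charcoal. Each group had 3 libraries, 12 in all, and each line is a single cell line, so a difference between the lines holds for these 2 lines. PLCD1 was a gene the study followed up after choosing it on these same libraries, so its direction here is not independent evidence. Among the genes it followed up by RT-qPCR, a PCR measure of RNA, the study reports NEFH alone as lowered by the mimic in both lines. The level of piR-4447944 itself was not analysed here.

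Phospholipase C enzymes cut the membrane lipid PIP2 into IP3, which opens calcium channels of the endoplasmic reticulum, and diacylglycerol (DAG), which stays in the membrane and activates protein kinase C. The classes differ in what switches them on: beta enzymes answer to Gq/11-coupled receptors, gamma enzymes to tyrosine kinases, delta enzymes mainly to calcium itself, and the epsilon enzyme to small GTPases of the Ras family. PLCB2 and PLCG2 are best known from blood cells, whereas PLCB3 and PLCG1 are found in most tissues.

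In the GENCODE release 44 annotation of hg38, the build of the deposited files, the members lie on 8 chromosomes. PLCB1 (chr20:8077251-8968360, plus strand) and PLCB4 (chr20:9067825-9504593, plus strand) are neighbours, and PLCG1 (chr20:41136960-41196801, plus strand) is on the other arm of the same chromosome. The other members are PLCD1 (chr3:38007496-38029642, minus strand), PLCD3 (chr17:45108959-45133354, minus strand), PLCD4 (chr2:218607855-218637184, plus strand), PLCB2 (chr15:40278176-40307935, minus strand), PLCB3 (chr11:64251530-64269150, plus strand), PLCG2 (chr16:81779279-81962685, plus strand) and PLCE1 (chr10:93993931-94332823, plus strand). As a feature of sequence that the choice of members did not use, the 3′UTRs of the members' reference transcripts were searched, on the transcript strand, for ATAGCTT, the 7 letters complementary to bases 2 to 8 of piR-4447944. The motif was found in 1 of 10 members, and in 10.2% of the 19229 protein-coding reference transcripts with a 3′UTR. The only match was in the last exon of PLCG2, at chr16:81962249-81962275 on the plus strand, with the motif starting at base 4261 of a 3′UTR of 4687 bases. It is shown with 10 bases on each side because it is the only match in the 3′UTRs searched, and the capitals mark the motif.
PLCG2: taaaaggaaaATAGCTTaaccttcaac
The 3′UTR of PLCD1 has 277 bases, the shortest of the 10, and held no copy of these 7 letters. A match or its absence describes the letters and not a site of action.

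The libraries held between 12161091 and 22179601 expected counts, which are the reads RSEM assigned to genes. All 9 markers of luminal prostate cells were at 1 TPM (reads per base of transcript, scaled to the same sum in every library) or more in every group, with a summed level of 4578 to 4916 TPM in LNCaP and 1914 to 2568 TPM in 22Rv1, whereas the 3 basal markers summed to at most 1.05 TPM. The 22Rv1 replicate 3 libraries stood apart from their own replicates, with a chi-square per gene of 37.69 to 106.2 against 3.43 to 15.03 in the other pairs, so the members' results that turn on them are given with and without them. In 22Rv1, summed levels of the 5 immune markers were 1.98, 4.15 and 4.41 TPM with NC-mimic and 7.24, 2.01 and 10.27 TPM with the mimic, and those of the 5 fibroblast markers were 6.10, 6.88 and 16.65 TPM and 4.83, 6.93 and 25.26 TPM. In LNCaP these sums were 1.57 to 6.02 TPM and 25.21 to 43.64 TPM. The fibroblast sum was mostly COL1A1, at 25.01 to 42.87 TPM in LNCaP and 4.23 to 21.68 TPM in 22Rv1, while COL1A2 was at 0 TPM throughout LNCaP. The highest of each sum in 22Rv1 came from a replicate 3 library. PTPRC, the pan-leukocyte gene, had 0 reads in all 6 LNCaP libraries and 0, 0, 5, 1, 1 and 8 in the 22Rv1 libraries. The study describes its experiments as independent repeats, while the labels do not tie a library to a culture, so p-values measure the spread between these libraries. In such bulk RNA, fewer cells that express a gene cannot be told apart from less RNA per cell.

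PLCG1, the enzyme that growth factor receptors activate, was the most abundant member in both lines, followed by PLCB4 in LNCaP and by PLCB3 in 22Rv1. In LNCaP with NC-mimic, PLCG1 averaged 93.3 ± 8.24 TPM (SD, n = 3), PLCB4 43.2 ± 5.54, PLCB3 12.3 ± 1.59 and PLCD3 11.7 ± 2.77 TPM. PLCD1 followed at 7.44 ± 1.5 and PLCB1 at 5.63 ± 0.891 TPM. PLCG2, PLCB2, PLCD4 and PLCE1 were below 2 TPM on average, PLCE1 lowest at 0.133 ± 0.0153 TPM. The neighbours in this order whose libraries overlapped were PLCB3 and PLCD3, PLCD1 and PLCB1, and PLCG2 and PLCB2, and the same was true in LNCaP with the mimic.

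In 22Rv1 with NC-mimic the order was PLCG1 (52.1 ± 15.9 TPM, SD, n = 3), PLCB3 (34.0 ± 4.68), PLCD3 (15.4 ± 3.04), PLCB4 (12.3 ± 2.29), PLCB1 (11.9 ± 3.62), PLCB2 (5.91 ± 3.03) and PLCD1 (5.05 ± 0.399). PLCD4, PLCE1 and PLCG2 averaged 1.07 ± 0.279, 0.767 ± 0.0802 and 0.333 ± 0.473 TPM. PLCG1 overlapped PLCB3 there because the replicate 3 library held 33.73 TPM of PLCG1 against 61.40 and 61.22 TPM in the other libraries. PLCD3, PLCB4 and PLCB1 also overlapped one another in turn, as did PLCB2 and PLCD1, and PLCD4, PLCE1 and PLCG2.

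**Figure D1:**
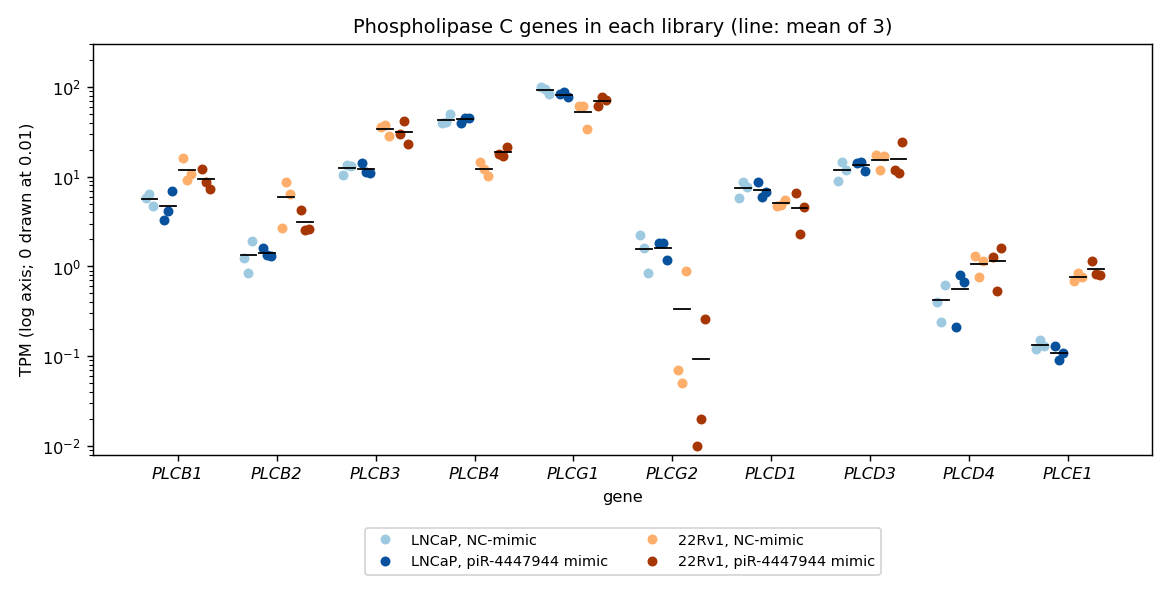
TPM of the 10 phospholipase C genes in each of the 12 libraries on a log axis, with the mean of each group of 3 as a line and a value of 0 drawn at 0.01. PLCG1 is at the top in both lines, while PLCB4 and PLCG2 sit higher in LNCaP and PLCE1, PLCB2, PLCB3 and PLCB1 higher in 22Rv1.

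The summed level of the beta class overlapped between the lines, while the gene that led it was not the same. The 4 beta genes summed to between 56.7 and 69.3 TPM over the 6 LNCaP libraries (median 61.9) and between 54.5 and 69.6 TPM over the 6 22Rv1 libraries (median 65.8). PLCB4 made up 66.5 to 73.1% of that sum in LNCaP and 18.0 to 39.5% in 22Rv1. PLCB3 made up 17.2 to 24.2% in LNCaP and 42.3 to 59.5% in 22Rv1, and neither share overlapped between the lines. The gamma sum was 77.6 to 102.7 TPM in LNCaP and 34.6 to 77.6 TPM in 22Rv1, and the delta sums overlapped at 15.2 to 23.6 and 13.8 to 30.3 TPM. Over the whole family the sum was 160.8 to 182.2 TPM in LNCaP and 114.8 to 161.8 TPM in 22Rv1, of which PLCG1 held 47.5 to 57.5% and 29.4 to 48.0%.

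The first comparison asked how the family differed between 22Rv1 and LNCaP under androgen deprivation with NC-mimic, with edgeR's quasi-likelihood test on the counts. Of the 10 members, 8 passed an adjusted p under 0.05, 4 higher and 4 lower in 22Rv1. Over all 17497 genes tested, 58.4% passed, so the count for the family is read against a background in which most genes differed. Fold changes below are log2 values of reads in 22Rv1 over LNCaP, with their standard error (SE). The median over the 10 members was 0.29, beside 0.01 over all genes.

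Among the beta genes, PLCB3, a widely expressed effector of Gq/11, had 611, 543 and 529 reads in the LNCaP libraries and 2076, 1579 and 1121 reads in the 22Rv1 libraries. Scaled to library size these were 27.9 to 32.2 and 91.4 to 102.1 CPM (counts scaled to the library size), and the groups did not overlap. The log2 fold change was 1.64 (SE 0.11, adjusted p = 9e-06). PLCB1, the neighbour of PLCB4, had 11.97, 14.72 and 15.71 CPM in LNCaP and 35.4, 28.1 and 30.5 CPM in 22Rv1, a log2 fold change of 1.14 (SE 0.16, adjusted p = 0.0005). PLCB2, the beta gene best known from blood cells, had 20, 10 and 16 reads in LNCaP and 57, 54 and 62 reads in 22Rv1, a log2 fold change of 2.12 (SE 0.44, adjusted p = 0.00373). Its fold change without the 22Rv1 replicate 3 library was 1.84 (adjusted p = 0.00311). Immune marker sums of the 3 libraries are given above, and their part in the result was not tested.

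PLCB4 went the other way. This beta gene, known for its part in vision and in the cerebellum, had 124.9, 145.6 and 136.6 CPM in LNCaP and 57.6, 47.4 and 40.4 CPM in 22Rv1, with no overlap. Its log2 fold change was -1.49 (SE 0.14, adjusted p = 6.2e-05). Of the 2 neighbours on chromosome 20, PLCB1 was thus higher and PLCB4 lower in 22Rv1.

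Both gamma genes were lower in 22Rv1. PLCG1 had 174.0, 163.6 and 177.9 CPM in LNCaP and 107.8, 117.6 and 70.6 CPM in 22Rv1, a log2 fold change of -0.81 (SE 0.18, adjusted p = 0.00456). The 22Rv1 replicate 3 library was the lowest of all, and without it the fold change was -0.62 (adjusted p = 6.56e-05). PLCG2, which relays signals of immune receptors, had 33, 29 and 41 reads in LNCaP and 3, 5 and 7 reads in 22Rv1, a log2 fold change of -2.53 (SE 0.59, adjusted p = 0.00614). Without the 22Rv1 replicate 3 library, which held the most reads of its group, it was -3.08 (adjusted p = 0.00116). The reads of PLCG1 share exons with PLCG1-AS1, a gene on the opposite strand, and whether counting used the strand is not given in the sources used here. PLCG1-AS1 had 73 to 96 reads in the LNCaP and 12 to 30 reads in the 22Rv1 NC-mimic libraries, and the protein-coding gene ZHX3, whose exons also overlap on the opposite strand, had 1542 to 1756 and 763 to 1026 reads, against 2922 to 3356 and 866 to 2366 reads of PLCG1. How many of these reads fell in shared exons was not tested.

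Of the delta genes, which calcium activates, PLCD1 was lower in 22Rv1 and PLCD3 and PLCD4 did not pass the test. PLCD1 had 10.9, 13.6 and 12.8 CPM in LNCaP and 4.83, 5.56 and 6.11 CPM in 22Rv1, with no overlap, a log2 fold change of -1.19 (SE 0.21, adjusted p = 0.0017). PLCD3 had 14.5, 13.5 and 20.4 CPM in LNCaP and 17.04, 16.35 and 22.74 CPM in 22Rv1, and these groups overlapped (log2 fold change 0.20, 95% interval -0.22 to 0.62). PLCD4 rested on 13 to 26 reads per library in LNCaP and 13 to 29 in 22Rv1, and its 95% interval ran from -0.64 to 1.41, so no difference was detectable at this depth. Exons of PLCD3 and PLCD4 overlap genes on the opposite strand, NMT1 and ACBD4 in the former case and ZNF142 in the latter.

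PLCE1, which is switched on by Ras and carries a Ras-activating domain of its own, had 21, 27 and 19 reads in LNCaP and 139, 103 and 93 reads in 22Rv1. Scaled to library size this was 1.09 to 1.39 CPM against 6.33 to 7.58 CPM, with no overlap. The log2 fold change was 2.48 (SE 0.29, adjusted p = 0.000189), the largest rise in the family on reads, although even in 22Rv1 its level per length stayed between 0.69 and 0.85 TPM.

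The same contrast in the libraries with the mimic, which share no library with those above, gave 7 of 10 members past the threshold, against 52.4% of the 17283 genes tested. PLCE1 (2.76, SE 0.30), PLCB3 (1.36, SE 0.16), PLCB2 (1.35, SE 0.42) and PLCB1 (1.27, SE 0.19) were higher in 22Rv1, and PLCD1 (-1.39, SE 0.24), PLCB4 (-1.30, SE 0.11) and PLCG1 (-0.56, SE 0.09) were lower, in the directions seen with NC-mimic. Adjusted p-values of these 7 ran from 0.000161 for PLCB4 to 0.0325 for PLCB2. PLCB2 was the least stable, since leaving out 1 library moved its adjusted p to 0.0767, 0.125 or 0.133 (LNCaP replicates 1, 2 and 3) and to 0.0992 or 0.055 (22Rv1 replicates 1 and 2). PLCG2 had 22, 30 and 31 reads in LNCaP and 0, 1 and 11 reads in 22Rv1, and its log2 fold change of -2.71 had an adjusted p of 0.0599. The 11 reads were all in the replicate 3 library, and without it the fold change was -5.49 (adjusted p = 0.000186). The 0 reads in 22Rv1 replicate 1 allow up to 0.206 CPM, counting error only.

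**Figure D2:**
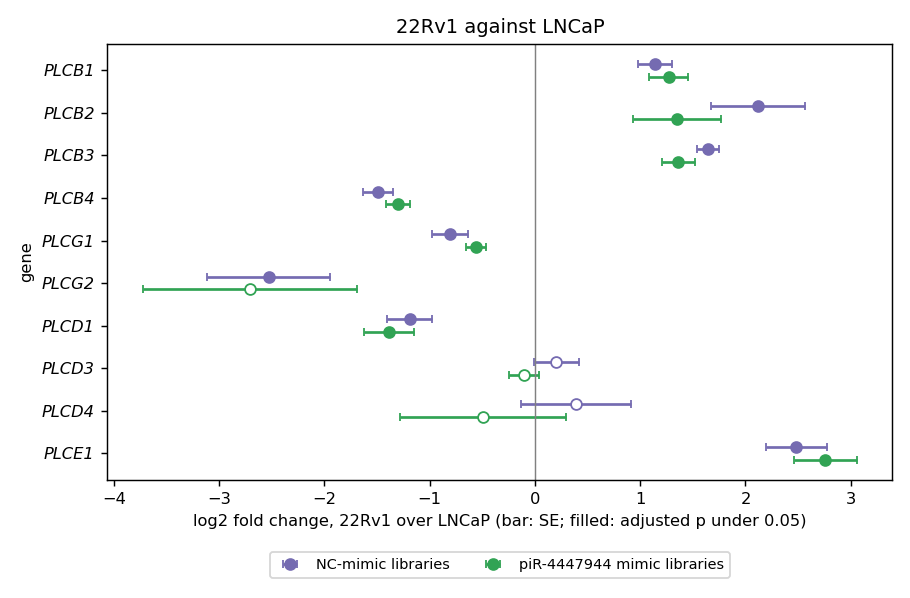
Log2 fold change of each member in 22Rv1 over LNCaP, with its SE, in the NC-mimic libraries and in the piR-4447944 mimic libraries, filled where the adjusted p is under 0.05. The 7 members filled in both lie on the same side of 0 in both, and PLCD3 and PLCD4 have open points, PLCD4 with long error bars at 0.39 and -0.49.

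Reads and TPM did not give the same size of difference for every member, because RSEM estimates for each library which transcripts the reads came from and divides by their mean length. The estimated length of PLCD1 was 2753, 2325 and 2383 bases in LNCaP and 1562, 1680 and 1639 bases in 22Rv1 with NC-mimic, beside 2651 bases for its reference transcript. The difference between the lines in PLCD1 was therefore -1.18 on log2 CPM but -0.54 on log2 TPM, with 5.83, 8.80 and 7.70 TPM in LNCaP and 4.77, 4.88 and 5.51 TPM in 22Rv1. With limma on log2(TPM + 1), PLCD1 missed the threshold (adjusted p = 0.0545). PLCD4 differed by 0.43 on log2 CPM and 1.42 on log2 TPM, with an estimated length of 2870, 3949 and 3552 bases in LNCaP against 1541, 1671 and 2271 bases in 22Rv1. PLCG2 differed by -2.66 on log2 CPM and -3.31 on log2 TPM, and its estimated length in 22Rv1 ranged from 1072 to 8666 bases on 3 to 7 reads. For the other 7 members the 2 scales were within 0.5 of each other, and all 10 had one sign on both. By limma on log2(TPM + 1), 5 members passed in this comparison, of the 7 that had 1 TPM or more in 3 libraries. In the mimic libraries, limma on log2(TPM + 1) gave -0.62 for PLCD1 (adjusted p = 0.169) and -0.23 for PLCG1 (adjusted p = 0.243), and neither passed.

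**Figure D3:**
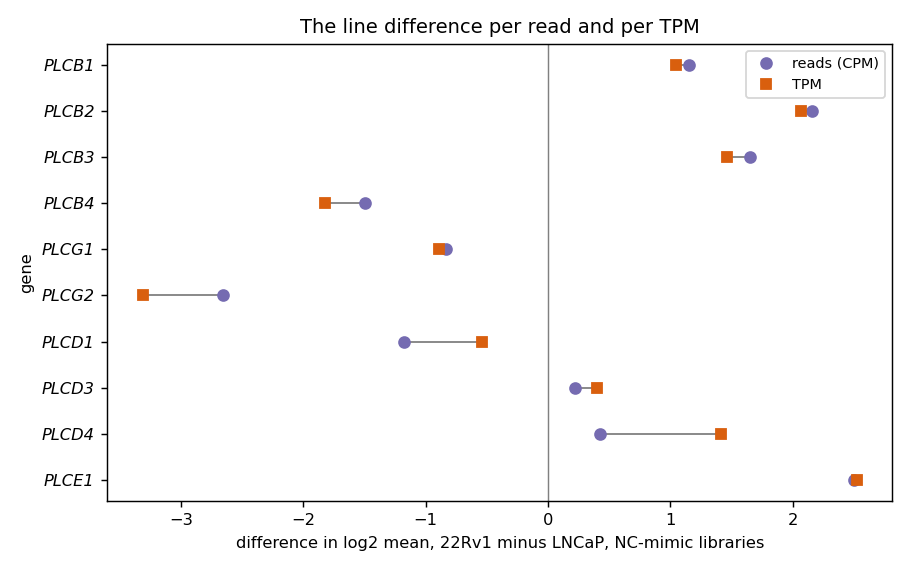
Difference between 22Rv1 and LNCaP in the NC-mimic libraries, in the group means of log2 reads (CPM, circles) and of log2 TPM (squares), for each member. The gap is widest for PLCD4, PLCG2 and PLCD1 and narrow for the other 7 genes.

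The second question was whether the piR-4447944 mimic changed the family in either line. The study called a gene at p under 0.05, not adjusted, and a log2 change of more than 0.2 in size. The study applied these thresholds to DESeq2 with shrunken fold changes, and here they are applied to edgeR p-values and fold changes that are not shrunken. On that basis 0 of 10 members were called in LNCaP, beside 2.22% of 16244 genes, and 1 of 9 members tested was called in 22Rv1, beside 1.48% of 16898 genes. By DESeq2 with shrunken fold changes, 2 genes were called in LNCaP and 233 in 22Rv1. The study, with DESeq2 and these thresholds, reports more genes than these 2 as changed in both lines. Its calls in LNCaP were thus not reproduced here, and the cause was not tested. No gene of either line, member or not, had an adjusted p under 0.05 (edgeR), and 433 and 250 genes had an unadjusted p under 0.05. The fold changes of the members had a median of -0.12 in LNCaP, from -0.42 (PLCB2) to 0.12 (PLCB3), and of -0.18 in 22Rv1, from -1.21 (PLCB2) to 0.18 (PLCB4), beside medians of -0.003 and -0.005 over all genes.

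PLCD1 had 211, 265 and 210 reads in LNCaP with NC-mimic and 153, 159 and 180 reads with the mimic. Scaled to library size these were 10.9, 13.6 and 12.8 CPM against 10.3, 9.78 and 10.4 CPM, and every mimic library lay below every NC-mimic library. The log2 fold change was -0.29 (SE 0.13, unadjusted p = 0.0511, adjusted p = 0.999), and it met the rule of the study only without LNCaP NC-mimic replicate 1 (-0.38, unadjusted p = 0.0271). In 22Rv1 PLCD1 had 106, 86 and 75 reads with NC-mimic and 69, 57 and 57 reads with the mimic. These were 4.83, 5.56 and 6.11 CPM against 4.74, 3.18 and 3.69 CPM, again with no overlap, though the highest mimic library was close to the lowest control. The log2 fold change there was -0.51 (SE 0.32, unadjusted p = 0.151, adjusted p = 0.999). Given no overlap, an exact two-sided permutation test on CPM could only give p = 0.1 in each line. This is the smallest p that 3 against 3 libraries can give. For the same reason PLCD1 was lower with the mimic in 3 of 3 same-numbered pairs in each line. In 22Rv1, where the numbers were taken to pair the libraries, an exact sign-flip test over the pairs gave p = 0.25. That is the smallest that 3 pairs can give, so these results restate the lack of overlap and add no evidence. PLCD3, PLCD4, PLCB1, PLCB2 and PLCB3 were also lower in 3 of 3 pairs of 22Rv1, and PLCB4 in 0 of 3. In LNCaP, where the libraries share only a number, PLCB1 was also lower in 3 of 3. The share of all genes lower in 3 of 3 pairs was not counted, so these directions are no result about the family.

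On TPM the groups of PLCD1 overlapped in both lines. In LNCaP they were 5.83, 8.80 and 7.70 TPM with NC-mimic and 8.74, 5.86 and 6.75 TPM with the mimic, and in 22Rv1 4.77, 4.88 and 5.51 TPM against 6.65, 2.29 and 4.65 TPM. The exact permutation p was 0.8 and 0.7. The estimated length moved with this difference, from 2753, 2325 and 2383 bases to 1817, 2452 and 2276 bases in LNCaP, and from 1562, 1680 and 1639 bases to 1187, 2091 and 1302 bases in 22Rv1, so that the log2 difference in LNCaP was -0.28 on CPM and -0.06 on TPM, and in 22Rv1 -0.52 and -0.29. The library with the highest TPM of each mimic group was the one with the shortest estimated length.

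PLCB2 was the member called in 22Rv1. It had 57, 54 and 62 reads with NC-mimic and 29, 24 and 23 reads with the mimic, or 2.60, 3.49 and 5.05 CPM against 1.99, 1.34 and 1.49 CPM, with no overlap. The log2 fold change was -1.21 (SE 0.44, unadjusted p = 0.0264, adjusted p = 0.999). The call was lost without NC-mimic replicate 2 (-1.25, unadjusted p = 0.0565), NC-mimic replicate 3 (-0.92, unadjusted p = 0.0883), mimic replicate 2 (-1.09, unadjusted p = 0.085) or mimic replicate 3 (-1.15, unadjusted p = 0.0527), and without both replicate 3 libraries it was -0.86 (unadjusted p = 0.114). The TPM values of 2.69, 8.70 and 6.35 against 4.24, 2.52 and 2.63 overlapped. The immune marker sum was not lower with the mimic (2.01 to 10.27 TPM against 1.98 to 4.41 TPM), and its part in the result was not tested. In LNCaP, PLCB2 had 20, 10 and 16 reads against 12, 10 and 8, a log2 fold change of -0.42 (SE 0.47, unadjusted p = 0.385).

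**Figure D4:**
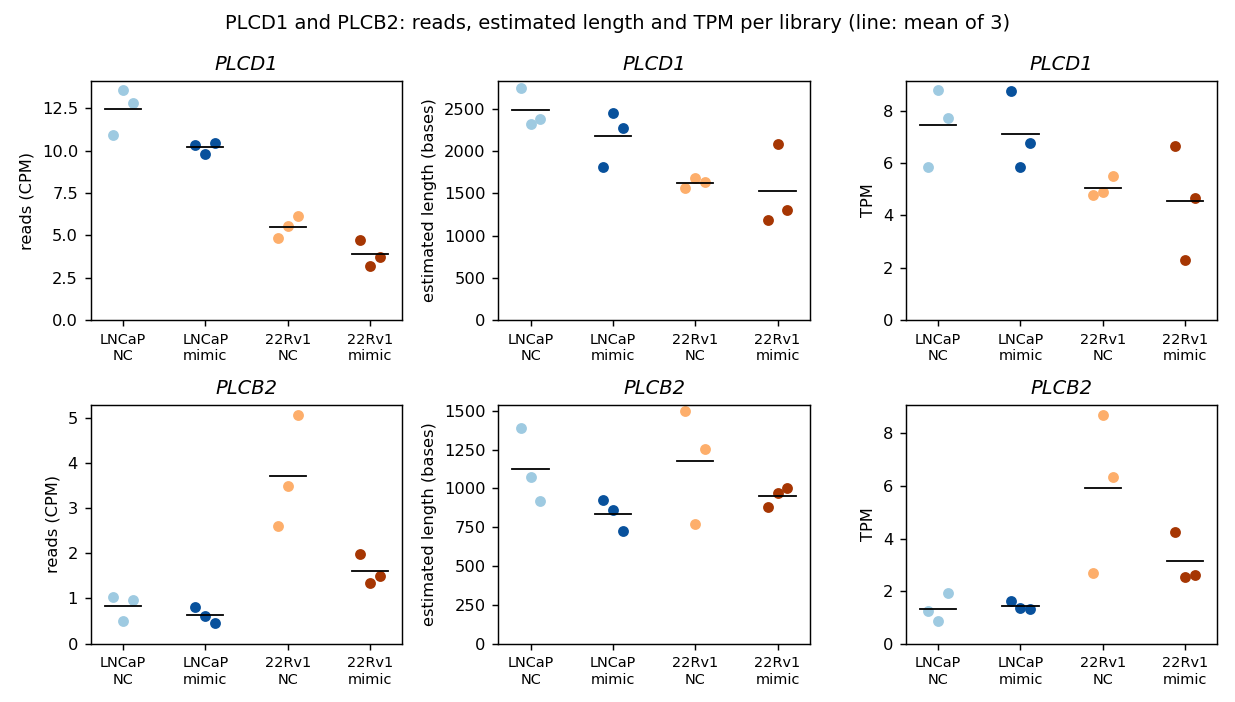
Reads (CPM), estimated transcript length (bases) and TPM of PLCD1 and PLCB2 in each of the 12 libraries, from 0 upwards, with the mean of each group of 3 as a line. The reads of PLCD1 separate mimic from NC-mimic in both lines, whereas its TPM overlap, and the reads of PLCB2 separate in 22Rv1 only.

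Of the other beta genes, PLCB1 had 11.97, 14.72 and 15.71 CPM in LNCaP with NC-mimic and 11.1, 9.48 and 14.3 CPM with the mimic, groups that overlapped (log2 fold change -0.28, SE 0.16, unadjusted p = 0.11). It met the study's rule without NC-mimic replicate 1 (-0.39, unadjusted p = 0.0484) or mimic replicate 3 (-0.46, unadjusted p = 0.0159). PLCB3 had a log2 fold change of 0.12 (SE 0.09) in LNCaP and -0.18 (SE 0.17) in 22Rv1. PLCB4 had 0.00 (SE 0.08) in LNCaP, with a 95% interval of -0.16 to 0.15, the narrowest but for that of PLCG1. In 22Rv1 PLCB4 differed by 0.18 (SE 0.17, unadjusted p = 0.339) on reads, but on TPM the groups of 14.64, 12.14 and 10.07 and of 17.96, 17.01 and 21.54 did not overlap. Limma on log2(TPM + 1) gave 0.59 (unadjusted p = 0.0248, adjusted p = 0.999), and the estimated length of PLCB4 was 5292, 5089 and 5203 bases with NC-mimic against 4653, 4275 and 3385 bases with the mimic.

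PLCG1 had 174.0, 163.6 and 177.9 CPM against 161.9, 164.6 and 157.4 CPM in LNCaP, a log2 fold change of -0.09 (95% interval -0.22 to 0.03), and 0.13 (95% interval -0.25 to 0.52) in 22Rv1. PLCG2, the only member with the 7-letter match printed above, had 33, 29 and 41 reads with NC-mimic and 22, 30 and 31 reads with the mimic in LNCaP, or 1.71, 1.49 and 2.50 CPM against 1.49, 1.85 and 1.80 CPM. Its log2 fold change was -0.14 with a 95% interval of -0.80 to 0.51. In 22Rv1 it was below the count filter and was not tested. PLCE1 had -0.28 (SE 0.37) in LNCaP and -0.02 (SE 0.25) in 22Rv1. PLCD3 had 0.09 (SE 0.15) and -0.25 (SE 0.20), and met the study's rule in LNCaP without NC-mimic replicate 3 (0.29, unadjusted p = 0.0355). PLCD4 had 0.04 (SE 0.47) and -0.87 (SE 0.83), where the 22Rv1 mimic library of replicate 2 held 2 reads.

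**Figure D5:**
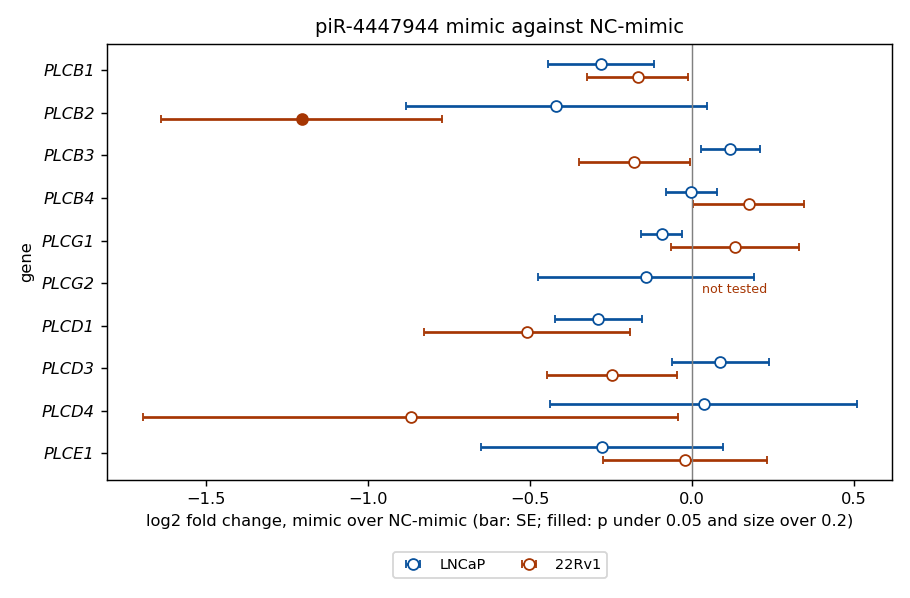
Log2 fold change of each member, piR-4447944 mimic over NC-mimic, with its SE, in LNCaP and 22Rv1, filled where the unadjusted p is under 0.05 and the size over 0.2. PLCB2 in 22Rv1, at -1.21, is the one filled point, and PLCG2 was not tested in 22Rv1.

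The CPM of the 2 groups did not overlap for 1 of 10 members in LNCaP (PLCD1), beside 7.85% of all genes tested, and for 3 of 9 in 22Rv1 (PLCD1, PLCD3 and PLCB2), beside 8.78%. In 22Rv1, PLCD3 had 17.04, 16.35 and 22.74 CPM against 15.61, 15.95 and 15.87 CPM, so 2 of the 3 NC-mimic libraries lay close above the mimic libraries.

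Fitted over both lines together, 2 of 10 members met the study's rule for the mean effect of the mimic, beside 1.54% of 18720 genes. PLCD1 had a mean log2 fold change of -0.39 (SE 0.14, unadjusted p = 0.0175) and PLCB2 of -0.84 (SE 0.32, unadjusted p = 0.0196), and both had an adjusted p of 0.9995. PLCB2 lost the call without 22Rv1 NC-mimic replicate 3 (-0.66, unadjusted p = 0.0522), and PLCB1, at -0.22 (unadjusted p = 0.0812), gained it without LNCaP mimic replicate 3 (-0.29, unadjusted p = 0.0309). PLCD1 kept it whichever library was left out, between -0.45 and -0.34. However, PLCD1 was chosen by the study on these libraries and met the rule in neither line fitted alone. The joint fit takes the spread between replicates as equal in both lines. Estimated apart, that spread (biological coefficient of variation) was 0.0964 in LNCaP and 0.343 in 22Rv1. For the difference between the lines in the effect of the mimic, 0 of 10 members met the rule, beside 3.26% of the genes, with unadjusted p-values of 0.144 and above. PLCG2 met it without 22Rv1 mimic replicate 3 (-2.99, unadjusted p = 0.0229), which leaves 1 read in that group. PLCD1 differed between the lines by -0.22 (95% interval -0.79 to 0.35) and PLCB2 by -0.79 (95% interval -1.99 to 0.42).

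Of 8 further genes that carry phospholipase C or related domains, 7 could be tested between the lines. PLCL1 and PLCL2, relatives that bind IP3 without the catalytic activity, were higher in 22Rv1 with NC-mimic, PLCL1 on 51, 31 and 31 reads against 4, 2 and 1 (log2 fold change 4.10, SE 0.54) and PLCL2 by 1.98 (SE 0.37). PLCH1 of the eta class was higher by 1.47 (SE 0.18) and PLCXD1 by 1.18 (SE 0.18), the latter on reads that RSEM divided with its copy on the Y chromosome. PLCXD2 was lower by -1.20 (SE 0.22) on reads, yet higher on TPM, at 1.60, 1.69 and 1.90 TPM in LNCaP and 13.10, 13.89 and 9.38 TPM in 22Rv1, with an estimated length of 6276 to 7710 bases against 625 to 832 bases. PLCH2 (-0.47, SE 0.45) and PLCXD3 (-0.15, SE 0.89) did not pass the test, though PLCH2 did without the 22Rv1 replicate 3 library (-1.08, SE 0.33, adjusted p = 0.0128), and PLCZ1, of sperm, had no value above 0. With the mimic, 0 of 6 tested in LNCaP and 0 of 7 in 22Rv1 met the study's rule, beside 2.22% and 1.48% of all genes. For the difference between the lines, 1 of 7 tested met that rule, beside 3.26% of all genes. This was PLCL1 (unadjusted p = 0.00793, adjusted p = 1), where LNCaP went from 4, 2 and 1 reads to 0, 0 and 0.

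The pathway around the family was followed through 6 lists of 60 genes, chosen for their role. With the mimic, 1 of 46 tested met the study's thresholds in LNCaP, beside 2.22% of all genes, and it fell, while 0 of 50 met them in 22Rv1, beside 1.48% of all genes. The one that fell was PRKCE, a protein kinase C that DAG activates, with 129, 149 and 151 reads against 84, 94 and 105 (log2 fold change -0.42, SE 0.18, unadjusted p = 0.0339, adjusted p = 0.999). In the mean over both lines DGKE, a kinase that removes DAG, was the one of 51 that met the rule, beside 1.54% of all genes (-0.25, SE 0.09, unadjusted p = 0.021, adjusted p = 0.9995). The medians of the 6 lists ran from -0.09 to 0.01 in LNCaP and from -0.07 to 0.06 in 22Rv1. Of the marker lists, KLK3, which encodes the prostate-specific antigen, was the one gene that met the rule in either line fitted alone. It was 1 of 9 luminal markers tested in 22Rv1, beside 1.48% of all genes (-0.76, SE 0.28, unadjusted p = 0.0287, adjusted p = 0.999). KLK3 was named after its value was seen, and its value without the 22Rv1 replicate 3 libraries was not computed.

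Between the lines with NC-mimic, 17 of 50 pathway genes tested were higher and 13 lower in 22Rv1, and 17 and 12 in the mimic libraries. Over all genes 58.4% and 52.4% passed, close to the share of the pathway genes, so the counts are no result about the pathway and the values below describe single genes. Without the 22Rv1 replicate 3 library, 19 were higher and 13 lower with NC-mimic, beside 66.2% of all genes. Adjusted p-values of the genes named here were between 2.75e-07 (RGS2) and 0.0446 (PIP4K2B). Upstream, 2 of 5 Gq/11 genes tested were higher and 0 lower. GNAQ, the alpha subunit that activates the beta enzymes, had a log2 fold change of 1.44 (SE 0.13), and RGS2, which shuts Gq off, had 12133, 8103 and 6426 reads in 22Rv1 and 0 in each LNCaP library, at least 9873.6-fold higher against a floor of 3 counts over the group. Of 8 genes of IP3 receptors and calcium entry, 4 were higher and 2 lower. The receptor genes parted, with ITPR1 at 858, 831 and 768 reads in LNCaP and 14, 1 and 12 in 22Rv1 (log2 fold change -6.35, SE 0.43), while ITPR2 (1.83, SE 0.21) and ITPR3 (0.53, SE 0.10) were higher. The calcium sensors STIM1 (-1.43, SE 0.11) and STIM2 (0.56, SE 0.17) differed in opposite directions.

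Downstream, 2 of 10 DAG effectors tested were higher and 4 lower. PRKD1, protein kinase D1, had 7870, 8237 and 6988 reads in LNCaP and 129, 94 and 193 reads in 22Rv1 (log2 fold change -5.55, SE 0.37), and PRKCH (-1.56, SE 0.36) and PRKCE (-1.44, SE 0.27) were lower too. RASGRP2, listed here with the DAG effectors, was higher (5.86, SE 1.22). It had 2, 2 and 2 reads in LNCaP and 27, 32 and 212 reads in 22Rv1, most in the replicate 3 library. Without that library RASGRP2 was at 3.82 (SE 0.65, adjusted p = 0.000281), PRKD1 at -6.14 (SE 0.11) and DGKB at -6.22 (SE 0.37). Of 7 DAG kinase genes, 2 were higher, DGKA (1.12, SE 0.14) and DGKZ (1.09, SE 0.16), and 3 lower, DGKB (-5.42, SE 0.54), DGKH (-2.09, SE 0.09) and DGKE (-1.30, SE 0.14).

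Among 8 genes of IP3 and inositol metabolism, 3 were higher and 1 lower. INPP1, a phosphatase of the inositol pathway, had 31, 24 and 20 reads in 22Rv1 and 0, 1 and 1 in LNCaP, a ratio of 41.7 with a counting interval of 11.1 to 350.3. ISYNA1, which makes inositol phosphate from glucose phosphate, was higher by 1.74 (SE 0.11) and ITPKC, an IP3 kinase, by 1.34 (SE 0.13), and INPP5A, an IP3 phosphatase, was lower by -1.57 (SE 0.30). Of 12 genes that rebuild PIP2, 4 were higher and 3 lower, led by PIP4K2C (0.94, SE 0.10), PI4K2B (0.69, SE 0.11) and PIP5K1A (0.46, SE 0.09) and by PI4K2A (-1.26, SE 0.16), PIP5K1C (-0.49, SE 0.10) and PIP4K2B (-0.44, SE 0.16).

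The genes whose log2 CPM followed PLCD1 most closely over the 12 libraries, of 18720, were EHHADH (Pearson r = 0.979), TMEM126A (0.978) and DAD1 (0.977). For PLCB1 they were CCNP (0.981), MAMSTR (0.978) and SCIN (0.978), and for PLCG2 CACNA1H (0.987), CASTOR1 (0.985) and AMPD2 (0.984). The points fall into 2 clusters, 1 for each line, so these values describe mainly that the genes share a side of the line difference.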

How the data were processed

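Libraries from total RNA of 12 samples were sequenced, with no selection step given in the sources used here. Per the submitters' processing notes, the authors used STAR 2.7.1a for alignment (hg38) and RSEM 1.3.0 for each library, which gave the deposited expected counts (reads per gene, a read that matches several genes being divided between them), the deposited TPM (per effective length) and the estimated transcript length. They tested with DESeq2 1.34.0 in R 4.1.1. The annotation release and the strand setting are not given in the sources used here. No column of the authors' own comparisons was used.

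Expected counts were rounded and tested with edgeR 4.0.16 (quasi-likelihood test, TMM scaling, filterByExpr, R 4.3.3) over all genes, within the groups compared for each line or treatment and over all 12 libraries for the mean and the difference between the lines, with Benjamini-Hochberg adjustment. CPM were scaled by TMM over 12 libraries. Levels between genes were compared on TPM. Depth was 12161091 to 22179601 counts per library, and intervals from counts cover counting error only. No pair of libraries was identical. Alternatives were DESeq2 1.42.0, other scaling, no filter, limma 3.58.1 on log2(TPM + 1) or log2(TPM + 0.1) for genes with 1 TPM in 3 libraries, leaving libraries out, fitting all libraries together, and the replicate number as a block. Same-numbered libraries of 22Rv1 deviated together (r = 0.198, 0.167 and 0.355) and were taken to be paired, from these values alone. Those of LNCaP (0.0211, 0.00504 and 0.189) were not, though the last exceeds the lowest of 22Rv1. Deviations from a group mean cancel out, so the 3 values of a line are not independent. The 22Rv1 replicate 3 libraries, which stood apart, enter all of its values, so the 22Rv1 pairing is not settled. The 22Rv1 fits were unpaired but for the replicate block. Positions and 3′UTRs came from GENCODE release 44, and the motif from the probe in the study's methods.

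The members and lists were chosen with earlier results of these data known. All 10 members were named, other phospholipase C genes where tested, pathway genes that met the study's rule with the mimic, up to 3 higher and 3 lower per list between the lines, and the 3 genes most like PLCD1, PLCB1 and PLCG2. KLK3 and PTPRC were named after their values were seen. One gene that the rule names is not reported here.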

Additional observations from a re-analysis of the deposited data

How the results depend on the processing

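Of 879 values of single members under alternatives, 780 kept direction and side of the threshold, 32 lost the threshold, 18 gained it and 49 changed sign. The number of members called between the lines with NC-mimic was 8 whichever library was left out and 5 by limma on log2(TPM + 1) or log2(TPM + 0.1), where fewer members passed the filter, and with the mimic it was 6 to 8 and 4 by limma on log2(TPM + 0.1). Over all genes, leaving out 1 library called 8453 of 18028 to 12117 of 18304 with NC-mimic and 6888 of 18053 to 12494 of 17988 with the mimic. By limma these were 8672 or 8204 of 16559 with NC-mimic, and 7197 of 16689 with the mimic on log2(TPM + 0.1). Leaving out 1 library gave 0 to 2 members called for the mimic in LNCaP, 0 to 1 in 22Rv1, 1 to 3 for the mean and 0 to 1 for the difference between the lines. Over all genes, the same settings called 284 of 16532 to 1008 of 16658 in LNCaP and 183 of 17699 to 376 of 17405 in 22Rv1. They called 295 of 19408 to 423 of 19364 for the mean and 407 of 19493 to 1041 of 19364 for the difference. With 1 library left out, PLCD1 ranged from -0.378 to -0.217 in LNCaP and from -0.696 to -0.387 in 22Rv1. Without the replicate 3 libraries of the line, the members called were 1 in LNCaP and 0 in 22Rv1, beside 929 of 16376 and 781 of 17101 genes. Without those of 22Rv1 alone the count for the mean was 1, beside 388 of 19077 genes. With all 12 libraries in one fit, which takes the spread of the lines as equal, 2 members were called in 22Rv1, PLCD1 among them (-0.505). With the replicate block, 1 member was called in LNCaP, PLCB1 (-0.295, unadjusted p = 0.0483, edgeR), and PLCB2 lost its call between the lines with the mimic (adjusted p = 0.0887). In 22Rv1 the block changed no call. The same-numbered libraries of LNCaP share only a number.

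For the changes of sign that follow, the cause was not tested. By limma on log2(TPM + 1), with or without filter, the LNCaP mimic differences were 0.08 (PLCB2), -0.019 (PLCB3), 0.009 (PLCB4) and 0.05 (PLCG2), and with TPM + 0.1 they were 0.154, -0.02, 0.009 and 0.106. In 22Rv1 they were 0.024 (PLCD4) and, without filter, 0.122 (PLCE1), and between the lines with the mimic 0.126 and 0.13 (PLCD3) and 0.443 (PLCD4). Without the replicate 3 libraries, PLCG2 in LNCaP was 0.063, PLCG1 in 22Rv1 -0.098, and, leaving out those of 22Rv1 alone, the mean 0.02 (PLCD3), 0.041 (PLCB3) and -0.097 (PLCG1), and the difference between the lines -0.015 (PLCG1). Leaving out 1 library, ranges that crossed 0 were, in LNCaP, PLCB4 -0.065 to 0.054, PLCD3 -0.022 to 0.29, PLCD4 -0.193 to 0.5 and PLCG2 -0.29 to 0.1, in 22Rv1, PLCE1 -0.092 to 0.058 and PLCG1 -0.056 to 0.281, for the mean, PLCB3 -0.074 to 0.053, PLCD3 -0.146 to 0.012 and PLCG1 -0.074 to 0.073, for the difference between the lines, PLCB1 -0.01 to 0.296 and PLCG2 -2.992 to 0.344, and between the lines with the mimic, PLCD4 -1.104 to 0.036.

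Over all genes, the 361 called for the mimic in LNCaP became 891 without filter, 2 by DESeq2 with shrunken fold changes, 168 in the fit of all libraries and 639 to 1074 by limma on TPM, and 929 without the replicate 3 libraries (1008 without that of NC-mimic alone). The 250 in 22Rv1 became 532, 1232 in the fit of all libraries, 420 with the block, 529 to 1005 by limma, 781 without the replicate 3 libraries and 376 without that of the mimic alone. The 289 of the mean became 770 without filter and 469 by DESeq2, and the 610 of the difference 1035 without filter, 1182 without the 22Rv1 replicate 3 libraries and 407 to 1041 with 1 library left out. Depth limits PLCD4, PLCG2, PLCB2 and PLCE1, with under 100 reads in most libraries, and PLCD1 in 22Rv1, with 57 to 106 reads.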
